A study of Mus musculus with 11 samples.

Results

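Matrix metalloproteinases (MMPs) are zinc-dependent enzymes that cut collagens, proteoglycans and other proteins of the extracellular matrix. The 10 genes described here, Mmp2, Mmp3, Mmp9, Mmp10, Mmp11, Mmp12, Mmp13, Mmp14, Mmp19 and Mmp23, were a named list of MMP genes, taken from the 55421 genes counted in each library. They were followed through RNA of articular cartilage from 11 mouse knees. All animals were C57BL/6 mice at 14 weeks of age, and the cartilage was cut from the knee with a scalpel. DMM, destabilization of the medial meniscus, is an osteoarthritis model in which knee surgery makes the joint unstable; it had been done 4 weeks earlier. The groups were 4 DMM knees of mice with the genotype label c-FosDCh (taken to mean loss of Fos from chondrocytes), 3 DMM knees of mice labelled c-FosWT, and 4 unoperated contralateral knees of c-FosWT mice. The labels do not give the Cre driver of the c-FosDCh mice, and without unoperated c-FosDCh knees among the libraries analysed here, surgery in that genotype could not be tested. The 11 libraries came from 8 animals: each c-FosWT DMM knee has its contralateral partner in the data, namely contralateral replicates 1, 2 and 4 for DMM replicates 1, 2 and 3.

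Most MMPs are secreted as inactive precursors, are activated by other proteases, and are held in check by the tissue inhibitors of metalloproteinases (TIMPs). In cartilage, Mmp13 is the collagenase best known for cutting type II collagen, and it is made by hypertrophic chondrocytes and by osteoblasts. Mmp9 is the gelatinase of osteoclasts and neutrophils. Fos, the gene named in the mouse labels, encodes one of the proteins that pair up as AP-1, and several MMP promoters are textbook targets of AP-1.

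Gene counts per library ranged from 13593454 to 18280558. Levels are given as CPM, counts divided by the TMM-scaled library total and expressed as CPM, and as CPM per kilobase of exon where genes are compared with each other. Fos had 19.4, 10.9, 29.5 and 33.04 CPM in libraries labelled c-FosDCh, against 12.1, 14.1 and 9.01 CPM in c-FosWT DMM libraries, so the labelled loss was not visible as a lower level, and directions for that group are those of its label. Cartilage genes marked all 11 libraries: the type II collagen gene Col2a1 lay between 2329 and 12288 CPM. Genes of other tissues were also present in all libraries. The osteoclast score, the mean log2 CPM of 12 marker genes, ranged from 4.35 to 5.58 in c-FosDCh-labelled DMM, from 5.77 to 6.00 in c-FosWT DMM and from 5.30 to 5.99 in contralateral libraries. The granulocyte score of 15 genes ranged from 3.97 to 8.82, from 8.34 to 9.24 and from 7.18 to 8.78 in the same order of groups. The c-FosDCh-labelled replicates 3 and 4 stood apart, with osteoclast scores of 4.81 and 4.35, macrophage scores of 3.36 and 2.37 and endothelial scores of 3.47 and 3.00, each below that of the other 9 libraries. In bulk RNA, fewer cells of a type and less RNA per cell cannot be told apart.

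Mmp13, Mmp12, Mmp3 and Mmp10 lie within 237727 bases of chromosome 9, and the promoters of this cluster are shown because Fos is a subunit of the factor that their shared motif is named for. The stretches are the 150 bases before a RefSeq start site on the forward strand (GRCm38.p6), written 5′ to 3′, with matches to the AP-1 motif TGANTCA and the TATA motif TATAAA in capitals. They span chr9:7272364-7272513 for Mmp13, chr9:7347224-7347373 for the second listed start of Mmp12, chr9:7445672-7445821 for Mmp3 and chr9:7502192-7502341 for Mmp10.
Mmp13: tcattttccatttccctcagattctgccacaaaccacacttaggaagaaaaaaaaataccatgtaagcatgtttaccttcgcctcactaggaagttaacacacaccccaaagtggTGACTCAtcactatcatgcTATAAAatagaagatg
Mmp12: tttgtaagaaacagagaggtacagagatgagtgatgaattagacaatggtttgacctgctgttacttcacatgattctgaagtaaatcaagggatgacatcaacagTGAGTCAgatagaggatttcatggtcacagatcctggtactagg
Mmp3: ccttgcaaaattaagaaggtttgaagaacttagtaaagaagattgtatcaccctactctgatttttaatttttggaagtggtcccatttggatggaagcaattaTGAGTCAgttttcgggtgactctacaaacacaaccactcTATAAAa
Mmp10: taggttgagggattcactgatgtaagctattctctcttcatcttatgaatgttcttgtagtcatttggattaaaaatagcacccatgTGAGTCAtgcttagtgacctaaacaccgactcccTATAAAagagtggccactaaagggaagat

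Each stretch held 1 AP-1 match, whose first base lay 35 bases before the start site in Mmp13, 44 in Mmp12, 46 in Mmp3 and 63 in Mmp10. On both strands, 7.81% of 32851 RefSeq promoters (250 bases before to 50 after the start) held this motif, and 4.24% held it within the last 150 bases before the start. TATAAA followed at 16, 7 and 29 bases before the start in Mmp13, Mmp3 and Mmp10. On either strand, 13.6% of all promoters held it in the full window and 7.57% within the last 150 bases before the start. At the second listed start of Mmp12 it came only after the start, from base 5. Mmp13 also held TGTGGT, the core of the RUNX motif, on the reverse strand 118 bases before its start, as 16.8% of promoters did on either strand. Mmp14 held this core 114 bases before its start, also on the reverse strand, and Mmp23 held it 177 bases before a start. The windows of Mmp11, Mmp14 and Mmp23 and that of the first listed start of Mmp12 held no AP-1 match. Of the 10 genes, 7 had a promoter in the RefSeq table; Mmp2, Mmp9 and Mmp19 were not among them. A match describes these letters only, and the cluster genes differed in level from the second most abundant member to the least.

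Per length, Mmp9 was the most abundant member with a mean of 213 CPM per kb over the 11 libraries, followed by Mmp13 at 129.7 and Mmp2 at 112 CPM per kb. Those 3 genes held between 80.2 and 92.1% of the summed CPM per kb of the 10 members in each library. Mmp14 (29.0 CPM per kb), the membrane-bound collagenase that activates pro-Mmp2, and Mmp3 (16.7), stromelysin 1, came next. Mmp19, Mmp23 and Mmp11 averaged 4.68, 4.24 and 2.67 CPM per kb. The order within neighbouring pairs was not firm: Mmp13 ranged from 61.2 to 224 and Mmp2 from 78.2 to 188 CPM per kb, and Mmp19 and Mmp23 overlapped in the same way. Mmp12, macrophage elastase, and Mmp10, stromelysin 2, were close to absent, with 92 and 11 counts in all 11 libraries. Outside the 10 genes, Mmp8, the neutrophil collagenase, reached 49.3 CPM per kb, and Mmp1a, Mmp1b and Mmp7 had no count in any library. Of the 10 members, 9 passed the filter on low counts and Mmp10 did not.

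Between c-FosWT DMM and contralateral knees, edgeR's quasi-likelihood test called 0 of 9 members at an adjusted p of 0.05, against 0% of all 18125 genes tested. At an unadjusted p under 0.05 the members also numbered 0 (19.9% of all genes), and DESeq2 (6.06% of the genes it adjusted, 2.48% higher and 3.57% lower) and limma-voom called 0 members; Mmp12 received no adjusted p from DESeq2. Between c-FosDCh-labelled and c-FosWT DMM knees, edgeR called 0 of 9 members, against 14.4% of all genes. The count at an unadjusted p under 0.05 was 1 (39% of all genes), DESeq2 called 1, which was lower (29.7% of the genes it adjusted, 16.4% higher and 13.3% lower), and limma-voom called 0. Between c-FosDCh-labelled DMM and contralateral knees, edgeR called 0 of 9 members and 0% of all genes, with 0 members under an unadjusted p of 0.05 (8.34% of all genes) and 0 by limma-voom and by DESeq2 (0.227% of the genes it adjusted, 0.0942% higher and 0.133% lower). Members whose groups did not overlap numbered 1, 1 and 0 in the 3 comparisons, against 23.1, 33 and 4.4% of all genes (13.1, 15.8 and 2.12% lower). The median log2 fold change of the 9 members was 0.003, -0.39 and -0.36 in the 3 comparisons, against -0.01, -0.01 and -0.002 for all genes. The comparisons share libraries and are given side by side for that reason only.

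**Figure D1:**
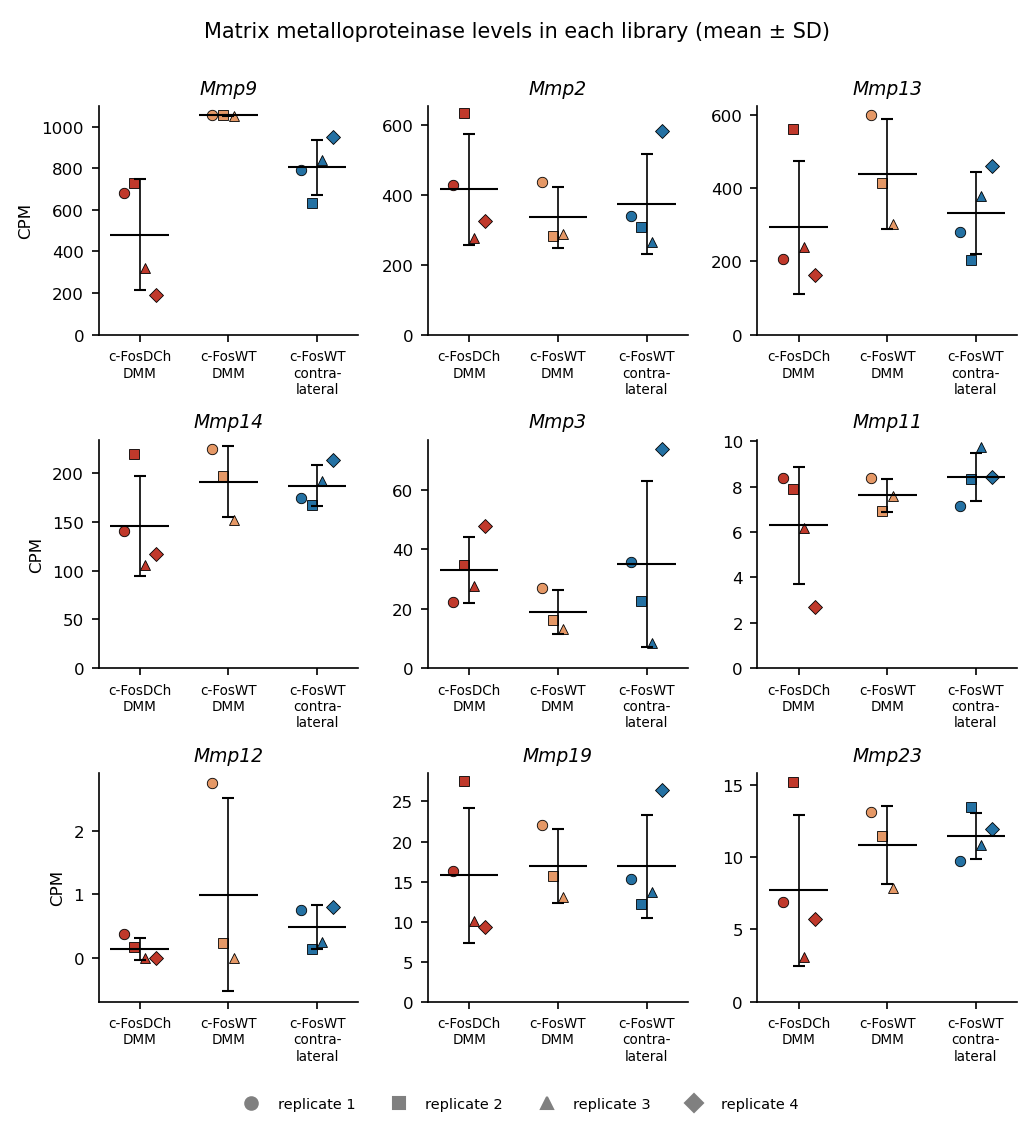
Level of the 9 members that passed the filter in each library, in CPM on linear axes, for c-FosDCh-labelled DMM, c-FosWT DMM and c-FosWT contralateral knees; symbols mark replicates, lines the mean and bars the SD (n = 4, 3 and 4). Mmp9 is near 1055 CPM in all 3 c-FosWT DMM libraries and at or below 730.3 CPM in the 4 c-FosDCh-labelled DMM libraries, while the groups overlap for Mmp2, Mmp13, Mmp14 and Mmp3.

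Mmp9 (ENSMUSG00000017737.2, chromosome 2 of GRCm38, 164940780 to 164955850, forward strand) is gelatinase B, which cuts denatured and type IV collagen. Its level was 682, 730.3, 320.1 and 191 CPM in c-FosDCh-labelled DMM libraries, against 1055, 1054 and 1052 CPM in c-FosWT DMM and 793, 635, 838 and 951 CPM in contralateral libraries. The c-FosWT DMM libraries were nearly equal and lay above every library of both other groups, and within the c-FosDCh-labelled group replicates 3 and 4 were the low ones. The means were 481 ± 266 CPM (SD, n = 4), 1054 ± 1.64 CPM (n = 3) and 804 ± 131 CPM (n = 4) in the same order. Against c-FosWT DMM, c-FosDCh-labelled DMM libraries had a log2 fold change of -1.13 ± 0.39 (SE), with an edgeR adjusted p of 0.0683. This missed the threshold, although the groups did not overlap. DESeq2 gave -1.16 with an adjusted p of 0.0187, and the adjusted p ranged from 0.0187 to 0.975 over the 23 alternative settings. It was 0.0421 without c-FosDCh-labelled replicate 1, 0.0315 without replicate 2, and 0.176 with a fold change of -0.59 without replicates 3 and 4. Calls over all genes also rose without replicate 1 and without replicate 2, in the second case from 2616 to 4626. Against contralateral knees, c-FosWT DMM libraries were 0.39 ± 0.39 higher (edgeR adjusted p = 0.568), again without overlap. Within the 3 animals with both knees, Mmp9 was 0.41, 0.73 and 0.15 log2 units higher on the DMM side. The erythroid score was 1.67, 2.08 and 0.90 higher there, the granulocyte score 0.03, 1.58 and 0.46 higher, and the osteoclast score differed by 0.43, 0.66 and -0.07. The erythroid scores of c-FosWT DMM libraries lay above those of all contralateral libraries, which were 5.81 to 7.70, and their part in the Mmp9 difference was not tested.

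Markers of several other cell types were also lower in c-FosDCh-labelled than in c-FosWT DMM libraries. Of the osteoclast markers, 11 of 12 had a negative log2 fold change, 4 fell in edgeR's test, namely Acp5, Ocstamp, Dcstamp and Oscar, and Nfatc1 rose, against 3.79% of all genes that fell and 10.6% that rose. Acp5, the tartrate-resistant acid phosphatase of osteoclasts, had 391, 463, 267 and 170.4 CPM in c-FosDCh-labelled libraries, against 825, 716 and 585 CPM in c-FosWT DMM libraries. The summed level of the 12 markers was 805 to 1782 CPM in c-FosDCh-labelled and 2165 to 2545 CPM in c-FosWT DMM libraries, and none of the 12 was at 0 in any library. With the osteoclast score as a covariate the Mmp9 log2 fold change between these groups was -0.09, with the marrow score -0.36, and with the chondrocyte score -0.95. Mmp9 minus the osteoclast score was 3.23 to 4.06 log2 units in c-FosDCh-labelled DMM, 4.04 to 4.27 in c-FosWT DMM and 3.73 to 4.06 in contralateral libraries, so that the DMM groups met at their edges. Other scores separated the DMM groups as well: the erythroid score was 3.98 to 7.05 in c-FosDCh-labelled and 7.93 to 8.61 in c-FosWT DMM libraries, the macrophage score 2.37 to 4.53 and 4.79 to 4.94, and the endothelial score 3.00 to 4.80 and 4.95 to 5.35. None of the genes on these 3 lists was at 0 in any library. Mmp9 minus the endothelial score was 4.58 to 4.86 log2 units in c-FosDCh-labelled and 4.69 to 5.09 in c-FosWT DMM libraries, and minus the macrophage score 4.88 to 5.21 and 5.10 to 5.25, so the DMM groups overlapped in both. The part of RNA from these cell types in the Mmp9 difference was not tested beyond these values.

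Mmp2 (ENSMUSG00000031740.8, chromosome 8, 92827291 to 92853420, forward strand), gelatinase A, is typical of fibroblasts and other mesenchymal cells. It had 428, 633, 276 and 324 CPM in c-FosDCh-labelled DMM libraries, against 437, 283 and 288 CPM in c-FosWT DMM and 341, 309, 264 and 583 CPM in contralateral libraries. The 3 groups covered nearly the same range, each with 1 or 2 high libraries. The log2 fold change was 0.31 ± 0.34 for c-FosDCh-labelled against c-FosWT DMM (edgeR adjusted p = 0.51) and -0.15 ± 0.34 for c-FosWT DMM against contralateral (adjusted p = 0.805).

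Mmp13 (ENSMUSG00000050578.10, chromosome 9, 7272514 to 7283331, forward strand) had 207, 562, 239 and 164 CPM in c-FosDCh-labelled DMM libraries, against 599.8, 414 and 301 CPM in c-FosWT DMM and 281, 205, 379 and 461 CPM in contralateral libraries. The c-FosDCh-labelled replicate 2 was as high as the c-FosWT DMM libraries and the other 3 lay below all of them. The log2 fold change between the DMM groups was -0.58 ± 0.44 (edgeR adjusted p = 0.324). Without c-FosDCh-labelled replicate 2 it was -1.11 with an adjusted p of 0.0394, in a range from 0.0394 to 0.978 over the 23 settings, so this library decided whether the gene was called. The change was not particular to Mmp13: without that library 4626 of all genes were called between the DMM groups, against 2616 with it. For c-FosWT DMM against contralateral it was 0.40 ± 0.44 (adjusted p = 0.599). The 3 animals went both ways, at 1.10, 1.02 and -0.61 log2 units for DMM minus contralateral.

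Mmp14 (ENSMUSG00000000957.11, chromosome 14, 54431612 to 54445364, forward strand) had 141, 219, 105 and 117 CPM in c-FosDCh-labelled DMM libraries, against 224, 197 and 152 CPM in c-FosWT DMM and 175, 168, 192 and 214 CPM in contralateral libraries. It varied least of the 9 members tested, by 2.13-fold between the lowest and the highest library. As with Mmp13, c-FosDCh-labelled replicate 2 was high. The other 3 were below every library of both other groups, which for Mmp13 held only against c-FosWT DMM. The log2 fold change was -0.39 ± 0.24 against c-FosWT DMM (edgeR adjusted p = 0.228) and -0.36 ± 0.22 against contralateral (adjusted p = 0.615). Without replicate 2 the first of these was -0.66 with an adjusted p of 0.0274, in a range from 0.0274 to 0.933 over the settings. The same fit called 4626 of all genes, against 2616 with every library.

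Mmp3 (ENSMUSG00000043613.8, chromosome 9, 7445822 to 7455975, forward strand), stromelysin 1, cuts proteoglycans and activates other MMPs. It had 22.3, 34.7, 27.8 and 48.1 CPM in c-FosDCh-labelled DMM libraries, against 27.2, 16.4 and 13.2 CPM in c-FosWT DMM and 35.8, 22.6, 8.65 and 73.7 CPM in contralateral libraries. The contralateral libraries alone spanned the whole range, and the lowest and the highest level of the gene both came from unoperated knees. The log2 fold changes had signs opposite to those of Mmp9: 0.81 ± 0.59 for c-FosDCh-labelled against c-FosWT DMM (edgeR adjusted p = 0.31) and -0.90 ± 0.59 for c-FosWT DMM against contralateral (adjusted p = 0.402). All 3 animals had less Mmp3 on the DMM side, by -0.40, -0.46 and -2.47 log2 units, and in the fit with the animal as a block the log2 fold change was -1.08 ± 0.46 (adjusted p = 0.281).

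Mmp10 (ENSMUSG00000047562.3, chromosome 9, 7502352 to 7510240) had 0 counts in all 4 c-FosDCh-labelled libraries, 2 counts in c-FosWT DMM replicate 2 and 6 and 3 counts in contralateral replicates 3 and 4. At 11 counts in all, no difference was detectable at this depth. Mmp3 and Mmp10 are close relatives, so the few Mmp10 counts are uncertain. Mmp11 (ENSMUSG00000000901.17, chromosome 10, 75923222 to 75936496, reverse strand), stromelysin 3, had 8.40, 7.90, 6.19 and 2.70 CPM in c-FosDCh-labelled DMM libraries, against 8.37, 6.93 and 7.56 CPM in c-FosWT DMM and 7.14, 8.35, 9.72 and 8.41 CPM in contralateral libraries. Only c-FosDCh-labelled replicate 4 was clearly low among these 11. The log2 fold change between the DMM groups was -0.27 ± 0.31 (edgeR adjusted p = 0.518). Mmp11 shares 155 exonic bases with Chchd10 on the other strand; the strand setting of the counts is not given in the sources used here.

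Mmp12 (ENSMUSG00000049723.14, chromosome 9, 7344381 to 7369499, forward strand) had 5, 3, 0 and 0 counts in c-FosDCh-labelled DMM libraries, against 47, 4 and 0 counts in c-FosWT DMM and 12, 2, 4 and 15 counts in contralateral libraries. The 47 counts of c-FosWT DMM replicate 1 were 2.75 CPM and exceeded those of all other libraries. That library set the fitted direction: the log2 fold change between the DMM groups was -2.81 ± 1.37 (edgeR adjusted p = 0.152) with it and 0.20 without it, and between c-FosWT DMM and contralateral knees 1.00 ± 1.17 (adjusted p = 0.627) with it and -2.01 without it. Fitted values at such counts depend on the prior count.

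Mmp19 (ENSMUSG00000025355.7, chromosome 10, 128790910 to 128800824, forward strand), which cuts basement membrane proteins, had 16.3, 27.5, 10.1 and 9.29 CPM in c-FosDCh-labelled DMM libraries, against 22.1, 15.7 and 13.1 CPM in c-FosWT DMM and 15.3, 12.2, 13.7 and 26.4 CPM in contralateral libraries. Its group means of 15.8 ± 8.42, 17.0 ± 4.63 and 16.9 ± 6.45 CPM (SD, n = 4, 3 and 4) were the closest of any member. Mmp19 shares 789 exonic bases with Tmem198b on the other strand, and its counts are uncertain for the reason given for Mmp11. Mmp23 (ENSMUSG00000029061.2, chromosome 4, 155650655 to 155653384, reverse strand), which is anchored in the membrane by its propeptide, had 6.86, 15.2, 3.07 and 5.72 CPM in c-FosDCh-labelled DMM libraries, against 13.1, 11.5 and 7.84 CPM in c-FosWT DMM and 9.71, 13.4, 10.8 and 11.9 CPM in contralateral libraries. The c-FosDCh-labelled group again held 3 low libraries and a high replicate 2. The log2 fold change between the DMM groups was -0.48 ± 0.43 (edgeR adjusted p = 0.403), and -1.05 with an adjusted p of 0.0339 without replicate 2, in a range from 0.0339 to 0.981 over the settings. Here too, leaving out replicate 2 raised the calls over all genes from 2616 to 4626.

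**Figure D2:**
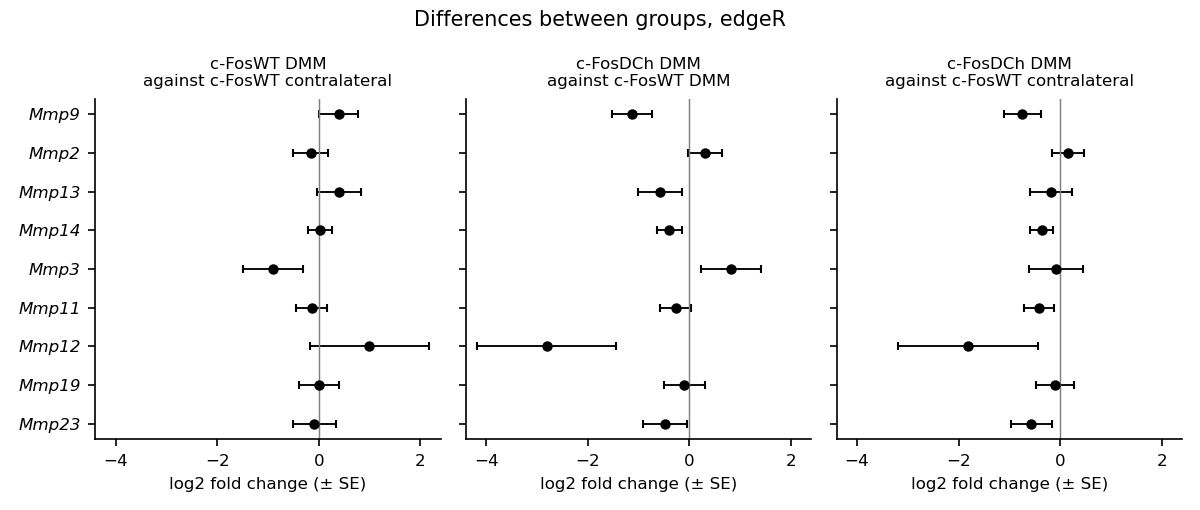
Log2 fold change (point) and SE (bar) of the 9 members in edgeR's fit, for c-FosWT DMM against contralateral, c-FosDCh-labelled DMM against c-FosWT DMM and c-FosDCh-labelled DMM against contralateral knees. The point of Mmp9 between the DMM groups is at -1.13, the widest bars belong to Mmp12 with its 92 counts, and no member passed the threshold.

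All 5 inhibitors of these enzymes had a positive log2 fold change between the DMM groups, as did Mmp2 and Mmp3 among the 9 members. Of 5 inhibitor genes tested, 3 rose in c-FosDCh-labelled against c-FosWT DMM libraries by edgeR's test and 0 fell, against 10.6% of all genes that rose and 3.79% that fell. The median log2 fold change of the 5 was 1.38. Timp3, the matrix-bound TIMP, had 884, 874, 2511 and 2219.5 CPM in c-FosDCh-labelled DMM libraries, against 494, 197 and 408 CPM in c-FosWT DMM and 808, 1169, 988 and 561 CPM in contralateral libraries. The c-FosDCh-labelled replicates 3 and 4 were highest, c-FosWT DMM libraries lowest, and the DMM groups did not overlap. The log2 fold change was 2.15 ± 0.49 (edgeR adjusted p = 0.0332).

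Reck, a membrane-anchored MMP inhibitor, had 87.5, 84.6, 185 and 137 CPM in c-FosDCh-labelled DMM libraries, against 57.0, 34.9 and 50.6 CPM in c-FosWT DMM and 130.0, 100.4, 126 and 66.5 CPM in contralateral libraries, a log2 fold change of 1.38 ± 0.33 between the DMM groups (edgeR adjusted p = 0.0344). Timp2, which also takes part in pro-Mmp2 activation with Mmp14, had 735, 641, 664 and 615 CPM in c-FosDCh-labelled DMM libraries, against 557, 364 and 410.3 CPM in c-FosWT DMM and 594, 665, 618 and 629.6 CPM in contralateral libraries, a log2 fold change of 0.58 ± 0.16 (adjusted p = 0.0417). For both genes the c-FosDCh-labelled libraries lay above all c-FosWT DMM libraries and overlapped the contralateral ones. Timp1 and Timp4 had log2 fold changes of 1.00 ± 0.35 and 1.502 ± 0.52 (edgeR adjusted p = 0.0714 and 0.0691) and did not pass. DESeq2 called all 5 inhibitors higher, with adjusted p-values of 0.0291 for Timp1 and 0.02 for Timp4 (16.4% of the genes it adjusted were called higher), and limma-voom called 3.

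Against contralateral knees, all 5 inhibitors had a negative log2 fold change in c-FosWT DMM, from -0.50 for Timp2 to -1.27 for Timp3. By edgeR, 0 of 5 passed, with 5 of 5 at an unadjusted p under 0.05 (19.9% of all genes), and DESeq2 called Timp2 and Reck lower (3.57% of the genes it adjusted were called lower). Between c-FosDCh-labelled DMM and contralateral knees the median was 0.22, with 0 of 5 called by edgeR and 0 at an unadjusted p under 0.05. Most cartilage markers moved with the inhibitors: 13 of 17 chondrocyte genes had a positive log2 fold change between c-FosDCh-labelled and c-FosWT DMM libraries and 6 rose, against 49.5% of all genes with a positive value and 10.6% that rose. The values ran from -5.04 to 3.30. The summed level of the 17 genes was 18558 to 50346 CPM in c-FosDCh-labelled, 5864 to 15939 CPM in c-FosWT DMM and 17919 to 32119 CPM in contralateral libraries. Their mean log2 CPM, the chondrocyte score, overlapped between the DMM groups. It was 7.48 to 8.58 in c-FosDCh-labelled, 6.18 to 8.15 in c-FosWT DMM and 7.58 to 8.43 in contralateral libraries. The part of the chondrocyte genes in the inhibitor difference was not tested. None of the 5 inhibitors was called between the DMM groups in 12 of 23 alternative settings, among them the 4 covariate settings, the fit of these groups alone, and the fits without contralateral replicate 1 or 2, c-FosWT DMM replicate 2 or 3, or c-FosDCh-labelled replicate 3, 4 or both.

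Of 5 genes that activate MMPs or clear them, 3 rose between the DMM groups and 0 fell, against 10.6% of all genes that rose and 3.79% that fell. Plat, tissue plasminogen activator, had a log2 fold change of 2.20 ± 0.49 (edgeR adjusted p = 0.0332), at 58.9, 35.2, 86.3 and 140.3 CPM in c-FosDCh-labelled against 25.01, 10.9 and 16.2 CPM in c-FosWT DMM libraries. Lrp1, the endocytic receptor that takes up Mmp13 and TIMP complexes, was at 1.01 ± 0.23 (adjusted p = 0.0332), and Furin, the convertase that activates Mmp14 and Mmp11, at 1.00 ± 0.29 (adjusted p = 0.0467). Plau and its receptor gene Plaur, of the urokinase system, were at -0.86 ± 0.46 and -0.78 ± 0.38 (adjusted p = 0.178 and 0.152). The calls of this list were also lost in 12 of 23 settings, the same ones as for the inhibitors. Of 13 further MMP genes 7 were tested, and 0 were called between the DMM groups by edgeR (14.4% of all genes). At an unadjusted p under 0.05 there were 5 (39% of all genes). DESeq2 called 3, namely Mmp15 and Mmp16 lower and Mmp28 higher. It called 29.7% of the genes it adjusted, 16.4% higher and 13.3% lower.

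**Figure D3:**
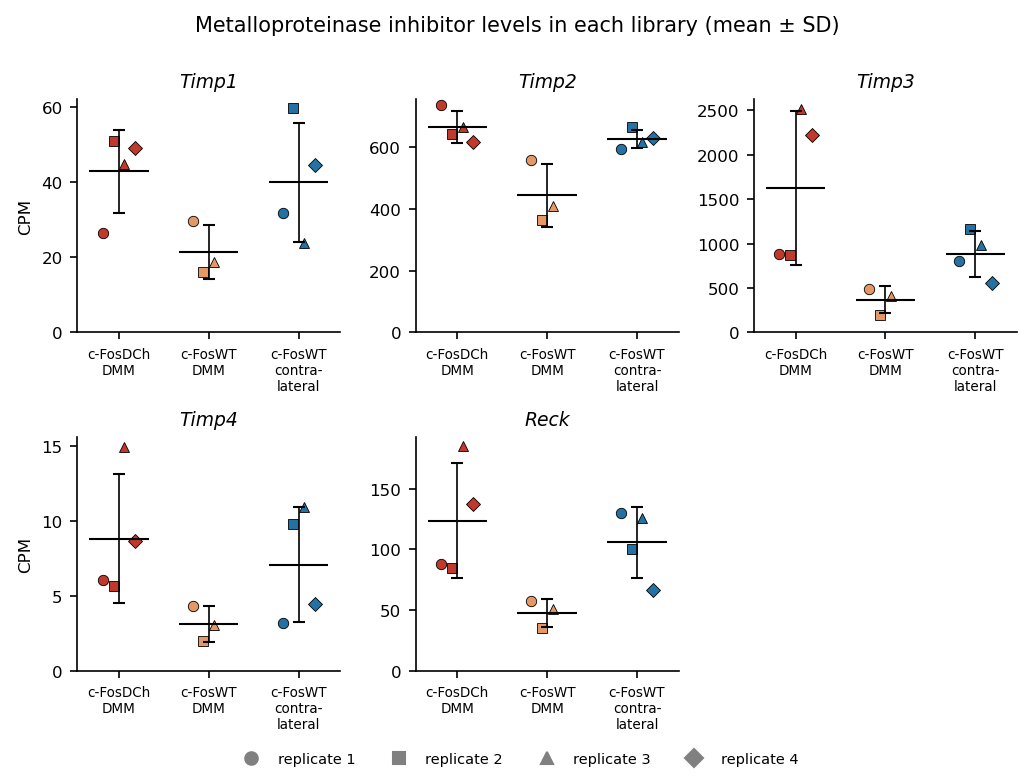
Level of the 5 inhibitor genes in each library, in CPM on linear axes, with mean and SD (n = 4 c-FosDCh-labelled DMM, 3 c-FosWT DMM and 4 c-FosWT contralateral libraries); symbols mark replicates. The c-FosDCh-labelled DMM libraries lie above the c-FosWT DMM libraries for Timp2, Timp3, Timp4 and Reck, and replicates 3 and 4 are the highest for Timp3 and Reck.

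Co-variation with cell type markers was then used to ask which members followed chondrocyte, osteoclast or marrow genes across the 11 libraries. Each of the 9 members was correlated with the scores of 11 marker lists, and 16 of 99 pairs passed at a Benjamini-Hochberg adjusted permutation p of 0.05. How often other genes would pass with these scores was not tested. No member passed with the chondrocyte score (r from -0.48 for Mmp9 to 0.44 for Mmp3, lowest adjusted permutation p 0.285) or with the hypertrophic chondrocyte score (r from 0.01 to 0.51, lowest adjusted permutation p 0.239). The 17 chondrocyte genes did not move together: their r ran from -0.81 to 0.66 with Mmp9 and from -0.62 to 0.75 with Mmp13. The 7 hypertrophic genes ran from -0.77 to 0.97 with Mmp9. A mean over such genes cannot show whether a member followed some of them. Mmp9, Mmp11, Mmp13 and Mmp14 passed with the osteoclast score. The scores are not independent of each other: the osteoclast score had r = 0.94 with the endothelial, 0.89 with the macrophage and 0.82 with the granulocyte and the erythroid score. When the 2 libraries with the most extreme score were left out, 0 of 99 pairs passed, and for deviations from the group means 0 of 99 passed. With 8 libraries, 1 from each animal, 11 of 99 passed. These were the contralateral and c-FosDCh-labelled libraries, so values over 8 animals leave out the whole c-FosWT DMM group.

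Mmp9 followed the osteoclast score at Pearson r = 0.97 (permutation p = 6e-05, adjusted p = 0.00297) and Spearman rho = 0.93 (permutation p = 0.0001, adjusted p = 0.0099). The r was 0.87 without c-FosDCh-labelled replicates 3 and 4, 0.93 for deviations from the group means and 0.97 over 8 animals. Its r with the endothelial, macrophage, granulocyte and erythroid scores was 0.97, 0.95, 0.90 and 0.88 (adjusted permutation p = 0.00528, 0.012, 0.012 and 0.00297). Spearman's rho for the same 4 scores was 0.81, 0.70, 0.68 and 0.85 (adjusted permutation p = 0.0711, 0.199, 0.221 and 0.0539). The endothelial score was as close as the osteoclast score, at 0.97 over 8 animals and 0.95 for deviations from the group means, and the macrophage score was at 0.96 and 0.93. Without the 2 farthest libraries these were 0.71, 0.49, 0.58 and 0.78, so the macrophage and granulocyte relations rest on those libraries. High r with Mmp9 was common among all genes. Its median r with the osteoclast genes, 0.92, lay at percentile 94.5 of its r with all genes tested. Single osteoclast genes ran from -0.75 to 0.95, so not all of them went with Mmp9. The medians for endothelial, macrophage, granulocyte and erythroid genes, 0.96, 0.94, 0.88 and 0.87, lay at percentiles 98.8, 96.8, 88.9 and 88.6. The lowest r of a single gene on these lists was positive, at 0.88, 0.40, 0.86 and 0.74 in the same order. The sizes of the changes differed as well: Mmp9 moved by 1.44 log2 units per unit of the osteoclast score and by 0.48 per unit of the granulocyte score. Per unit of the endothelial, macrophage and erythroid scores it moved by 0.99, 0.92 and 0.50. Over the 11 libraries, Mmp9 minus the score had an SD of 0.20 for endothelial, 0.24 for macrophage and 0.30 for osteoclast genes. For erythroid and granulocyte genes this SD was 0.78 and 0.83. Mmp8, the neutrophil collagenase, moved by 0.97 per unit of the granulocyte score (r = 0.98), and Mmp25, a membrane-bound MMP of leukocytes, by 0.82 (r = 0.96). The level of Mmp8 in c-FosDCh-labelled replicate 4 was 6.59 CPM, against 123 to 151 CPM in replicates 1 and 2, while Mmp9 there was 191 CPM.

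**Figure D4:**
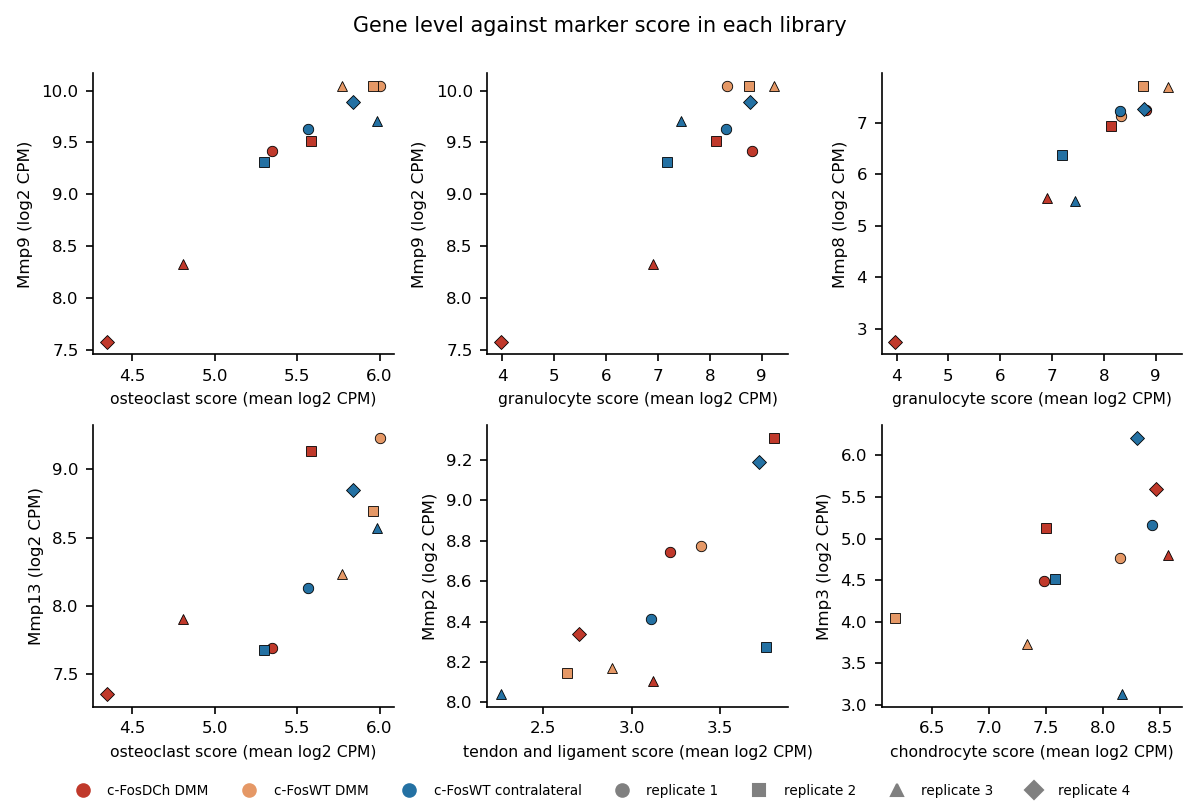
Log2 CPM of a gene against a marker score (mean log2 CPM) in the 11 libraries, coloured by group with symbols for replicates: Mmp9 and Mmp13 against osteoclast, Mmp9 and Mmp8 against granulocyte, Mmp2 against tendon and ligament, and Mmp3 against chondrocyte scores. Mmp9 follows the osteoclast score with r = 0.97, and Mmp3 has r = 0.44 with the chondrocyte score (rho = 0.63), which did not pass.

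Mmp13 had r = 0.78 with the osteoclast score (permutation p = 0.00249, adjusted p = 0.0274; rho = 0.85, adjusted permutation p = 0.0539). This was 0.74 without c-FosDCh-labelled replicates 3 and 4, 0.79 for deviations from the group means and 0.75 over 8 animals, where the adjusted permutation p was 0.108. Its r with the chondrocyte score was -0.20, and -0.15 over 8 animals. With the hypertrophic chondrocyte score its r was 0.25 over 11 libraries, 0.61 for deviations from the group means and 0.72 over 8 animals (adjusted permutation p = 0.105), the last close to its value with the osteoclast score. The value over 8 animals holds no c-FosWT DMM library, so it differs from the first by a group as well as by repeated animals. Mmp14 had r = 0.85 with the osteoclast and 0.87 with the endothelial score (adjusted permutation p = 0.0197 and 0.012; rho = 0.80 and 0.75, adjusted permutation p = 0.0711 and 0.133). Without c-FosDCh-labelled replicates 3 and 4, r was 0.61 (unadjusted permutation p = 0.0873) and 0.68 (0.0464). Mmp11 had its highest r, 0.89, with the osteoblast and osteocyte score (adjusted permutation p = 0.0441; rho = 0.40, adjusted permutation p = 0.489), but 0.07 without contralateral replicate 3 and c-FosDCh-labelled replicate 4, so that relation rests on those libraries. Its r of 0.81 with the osteoclast score (rho = 0.56, adjusted permutation p = 0.262) rests on c-FosDCh-labelled replicates 3 and 4, without which it was 0.08.

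Mmp23 and Mmp19 had their highest r with the fibroblast score, at 0.83 and 0.76 (adjusted permutation p = 0.0274 and 0.0463; rho = 0.85 and 0.65, adjusted permutation p = 0.0539 and 0.221). Without c-FosDCh-labelled replicates 3 and 4 these were 0.53 and 0.52, so they rest on those libraries. The remaining passing pairs were those of Mmp11 and Mmp14 with the fibroblast score and of Mmp11 and Mmp23 with the endothelial score. Mmp2 had its highest r, 0.74, with the tendon and ligament score (permutation p = 0.0101, adjusted p = 0.0589; rho = 0.74, adjusted permutation p = 0.139), which did not pass. The 5 genes of that list differed: r of Mmp2 with them ran from -0.12 to 0.76, with a median of 0.25 (percentile 79.3 of all genes). Its median r with the 10 fibroblast genes was higher, at 0.38 (percentile 93.1). Mmp3 passed with no list: its highest r was 0.60 with the tendon and ligament score (adjusted permutation p = 0.15), and its r with the osteoclast score was -0.38. The highest rho of Mmp3 was 0.63, with the chondrocyte score (unadjusted permutation p = 0.0438, adjusted permutation p = 0.221).

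**Figure D5:**
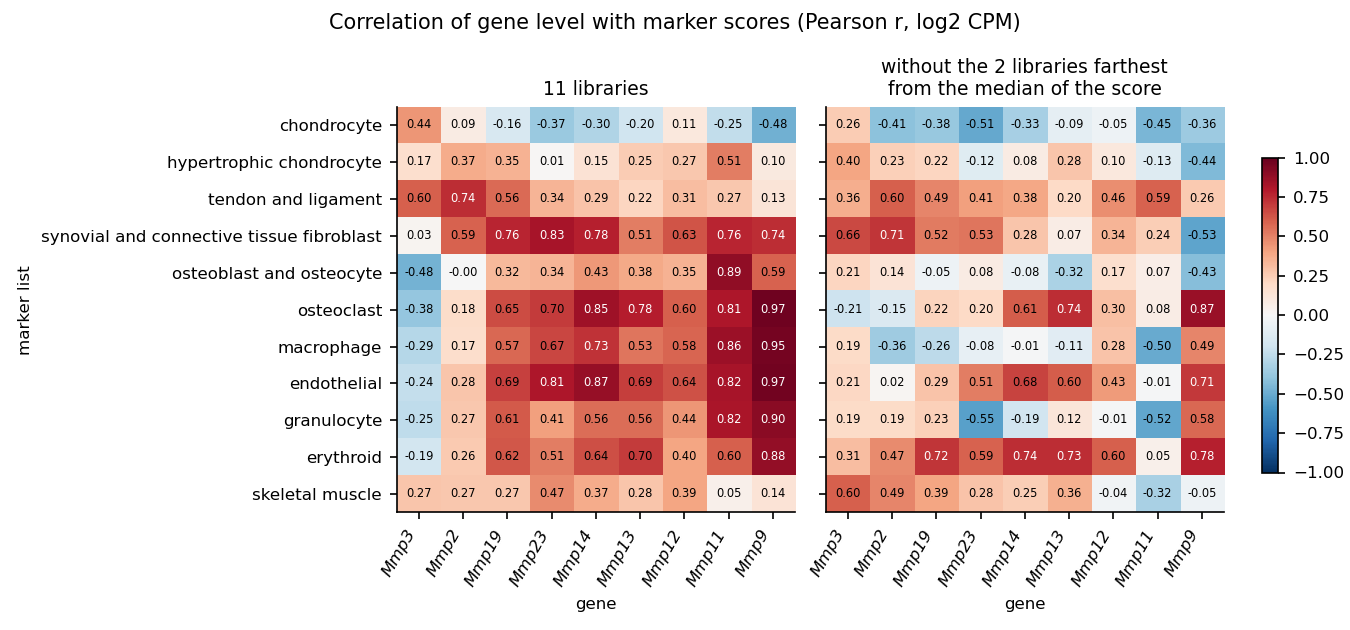
Pearson r of the log2 CPM of each member with each marker score, over all 11 libraries (left) and without the 2 libraries farthest from the median of that score (right); red is positive and blue negative. The Mmp9 column is red from osteoclast to erythroid on the left and highest for osteoclast (0.87) on the right, and the chondrocyte row stays between -0.51 and 0.44.

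Among the members themselves, Mmp14 and Mmp23 were the closest pair over the 11 libraries (r = 0.93, permutation p adjusted over the 120 pairs of 16 MMP genes 0.0024; rho = 0.85, adjusted permutation p = 0.0387), with 0.83 without 2 libraries. Mmp2 and Mmp19 had r = 0.85 (0.61 without 2), Mmp13 and Mmp14 also 0.85 (0.79), Mmp14 and Mmp19 0.83 (0.71) and Mmp13 and Mmp19 0.83 (0.72). Mmp9 had 0.80 with Mmp14 (0.37 without 2) and 0.70 with Mmp13 (0.58), and Mmp9 and Mmp11 had 0.83 but -0.27 without 2. Each of these pairs passed at an adjusted permutation p of 0.05 over 11 libraries by Pearson's r. By rho, Mmp13 with Mmp14 (rho = 0.89, adjusted permutation p = 0.0212) passed too, and the other 6 did not.

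The genes with the highest r to each member were named over 12642 candidate genes whose log2 CPM averaged 1 or more, as a description with no test. For Mmp9 over 11 libraries they were Gpm6a, Dtx4, 9930111J21Rik2, Csf1r, the receptor for the osteoclast and macrophage growth factor M-CSF, and Tlr1, with r from 0.992 to 0.987. For Mmp2 they were Antxr1, Aspn, Slc6a2, Gpm6b and Angptl1 (0.965 to 0.877), of which Aspn encodes the small proteoglycan asporin. For Mmp14 they included Fscn1, Adam12, Sh3pxd2b and Cdh11 (0.966 to 0.940). For Mmp13 they were Pnrc2, Pcdhb11, Fam198b, Siah1a and Gtf2h1 (0.939 to 0.889). For its deviations from the group means they were Pnrc2, Dcstamp, Sh3bgrl, Pcdhb11 and Gxylt2 (0.97 to 0.92). Of these, Dcstamp, which osteoclast precursors need for fusion, is itself a gene of the osteoclast score. Lists for deviations of the other members are not given. For Mmp3 they were Fas, Pikfyve, Ccnc, Rap2c and Dclk1 (0.885 to 0.825).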

How the data were processed

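Articular cartilage RNA from 11 mouse knees was measured by poly(A)-selected, directional single-end sequencing, per the labels' protocols. The submitters' processing notes name the build GRCm38 and the tools STAR 2.6.1a, DESeq2 1.22.2, RSEM (version not stated) and bcl2fastq 2.19.1.403; for the annotation release and strand setting, the sources used here give nothing. The authors deposited 1 table of whole-number gene counts for each library, not normalized. The 4 read classes that are not genes stayed out, which left 33.08 to 43.16% of reads as gene counts. Symbols came from GENCODE M21, which matched 55240 of 55421 genes.

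Counts were analysed with edgeR 4.0.16 in R 4.3.3: after TMM scaling and the filterByExpr filter (18125 genes kept), 1 robust quasi-likelihood fit of the 3 groups took all 11 libraries. The threshold was an adjusted p under 0.05 (two-sided, Benjamini-Hochberg over all genes). DESeq2 1.42.0 and limma 3.58.1 were alternatives. Log2 CPM had a prior count of 2. Replicates are separate knees, and 3 animals gave 2 knees each, which the main fit treats as independent; every pair of libraries within a group differed by more than sampling noise. The c-FosDCh libraries were numbered in accession order because 2 of them carry the same number. The animal numbers pair 3 DMM with 3 contralateral knees; deviations of paired knees correlated at -0.17, -0.18 and 0.25 over genes. Correlation p-values are two-sided and came from 100000 random permutations, or from every permutation where fewer than 10 libraries were used. For deviations from the group means, every permutation within the groups was used. The scripts were tested on simulated data. Sequences are from RefSeq (GRCm38.p6). The members and gene lists were chosen with earlier results of these data known; all 10 members are named, pathway genes may be, and the 5 genes most like each member were taken by r, of which 1 is not reported here.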

Additional observations from a re-analysis of the deposited data

How the results depend on the processing

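Log2 fold changes of members kept their direction and side of the threshold in 294 of 331 alternative settings that kept every library or left out 2, and in 264 of 291 that left out 1. Mmp9 between the DMM groups became called by DESeq2 and missed the threshold by limma-voom; its range without 1 library was -1.41 to -0.88. Scaling by library totals moved the median of all genes by -0.17 between the DMM groups (54.5% of its calls were higher, against 1929 of 2616 with TMM) and by -0.16 against contralateral.

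All genes called between the DMM groups numbered 2616, but 1443 with no filter, 5358 by DESeq2 (1 member), and 0 with the 2 groups alone, with the marrow, chondrocyte, osteoclast or skeletal muscle score as a covariate, or without c-FosDCh-labelled replicates 3 and 4 together, a setting chosen after seeing the data. Without 1 library they ranged from 0 (without contralateral replicate 1, c-FosWT DMM replicate 2 or 3, or c-FosDCh-labelled replicate 3 or 4) to 4626 (without c-FosDCh-labelled replicate 2), with 1 without contralateral replicate 2, 1355 without contralateral replicate 3 and 4449 without c-FosDCh-labelled replicate 1, and members from 0 to 4 (Mmp9, Mmp13, Mmp14 and Mmp23 without c-FosDCh-labelled replicate 2). DESeq2 called 902 genes between c-FosWT DMM and contralateral and 41 between c-FosDCh-labelled DMM and contralateral knees, where leaving out 1 library gave 0 to 1. The 16 co-variation pairs became 0 for deviations from group means, 0 without the 2 farthest libraries, 27 with library totals, and 1 to 18 without 1 library (1 without c-FosDCh-labelled replicate 4, 5 without its replicate 3, 9 without c-FosWT DMM replicate 1 and 10 without contralateral replicate 4). The cause was not tested.

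Reversed values were as follows. For c-FosWT DMM against contralateral: upper quartile gave Mmp14 -0.0167 and Mmp19 -0.0407, limma-voom Mmp12 -0.71, the 2 groups alone Mmp19 -0.001, the marrow score Mmp9 -0.17, Mmp14 -0.14 and Mmp19 -0.36, the chondrocyte score Mmp14 -0.08 and Mmp19 -0.0806, the osteoclast score Mmp14 -0.13 and Mmp19 -0.28, and the muscle score Mmp12 -0.34, Mmp14 -0.0482 and Mmp19 -0.14. With the animal as replicate block over 3 pairs, Mmp19 was -0.0236, Mmp9 0.44 (edgeR adjusted p = 0.305), and 0 members and 0 genes were called; the block changed no other call. Leaving out 1 library gave ranges of -0.36 to 0.16 for Mmp2, -0.0721 to 0.18 for Mmp14, -0.20 to 0.32 for Mmp19, -0.22 to 0.11 for Mmp23 and -2.01 to 1.58 for Mmp12.

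For c-FosDCh-labelled against c-FosWT DMM: the marrow score gave Mmp11 0.28 and Mmp19 0.53, the osteoclast score Mmp11 0.47, Mmp13 0.50, Mmp14 0.17, Mmp19 0.86 and Mmp23 0.20, the muscle score Mmp19 0.0524, and leaving out replicates 3 and 4 together Mmp11 0.0851, Mmp19 0.36 and Mmp23 0.0188. Leaving out 1 library gave -0.51 to 0.10 for Mmp19 and -3.80 to 0.20 for Mmp12. For c-FosDCh-labelled DMM against contralateral: library totals gave Mmp2 -0.0023, limma-voom Mmp3 0.23, the marrow score Mmp13 0.0304 and Mmp19 0.17, the osteoclast score Mmp11 0.10, Mmp13 0.62, Mmp14 0.0344 and Mmp19 0.58, and leaving out replicates 3 and 4 together Mmp13 0.23 and Mmp19 0.39. Leaving out 1 library gave -0.13 to 0.44 for Mmp2, -0.41 to 0.57 for Mmp3, -0.71 to 0.0389 for Mmp13 and -0.51 to 0.20 for Mmp19. Mmp10 and Mmp12 are limited by depth, and Mmp12 gave no value where a filter removed it.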
